A study of Mus musculus with 10 samples.

Results

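The 10 genes described here take glucose into the cell, break it down or sense oxygen: Slc2a1, Slc2a3, Hk2, Hk3, Pfkfb3, Pfkfb4, Ldha, Pgk1, Egln3 and Hif1a. They were chosen by name from the 32285 genes of the count table, with earlier results of these data known. All 10 were found and passed the minimum mean count in every fit. Their levels were followed in RNA from the blood of C57/BL6J mice, labelled as leukocytes. The groups were sleep deprivation (SD) for 6, 12, 24 and 48 h, an earlier published sleep restriction method (SASD) for 6, 12, 24, 48 and 120 h, and a control (Con) at 0 h. Each group was 1 library made from the pooled blood RNA of 3 mice, which were bled under pentobarbital, and the labels name no allele. How SD and SASD were carried out is not given in the sources used here. The comparisons ask whether the genes changed with hours of SD or SASD, and whether SD differed from SASD at the 4 shared times.

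Glucose enters leukocytes through facilitative transporters, is trapped as glucose 6-phosphate by hexokinases, and is broken down to pyruvate, which lactate dehydrogenase turns into lactate. Fructose 2,6-bisphosphate, made and removed by the PFKFB enzymes, sets the pace at phosphofructokinase. Neutrophils rely on glycolysis for most of their ATP and can work where oxygen is scarce. The transcription factor HIF-1 joins the pathway to oxygen: prolyl hydroxylases mark its alpha subunit for destruction while oxygen is present, and when it is stable it binds hypoxia response elements at genes for transporters, glycolytic enzymes and the hydroxylase Egln3 itself.

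The core of that element reads ACGTG or GCGTG, and RefSeq promoter windows (GRCm38.p6, 250 bases before to 50 after a gene's start) were searched for both on either strand. Of the 10 genes, 9 had a window, all but Slc2a3, and 2 of them had more than 1. ACGTG was found in 9 of 11 windows, covering 8 of the 9 genes, against 19.6% of all 32851 windows. GCGTG was found in 5 of 11 windows, against 32.4% of all windows, and every window held at least 1 of the motifs, against 43.8% of all. Both motifs hold the letters CG, and the shares of all windows were not matched for GC content. The windows of the members had 49% (Hk3) to 69.7% GC (1 of Pfkfb3). A match is a description of these letters and not of binding. The windows of the 5 genes with the largest estimates of SD over SASD are printed with each match in capitals, where CACGTG holds ACGTG on both strands. Slc2a1 lies at chr4:119108495-119108794 on the plus strand, Hk3 at chr13:55021336-55021635 on the minus strand, Pfkfb4 at chr9:108991652-108991951 on the plus strand, Ldha at chr7:46845554-46845853 on the plus strand and Egln3 at chr12:54203825-54204124 on the minus strand.

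Slc2a1 promoter: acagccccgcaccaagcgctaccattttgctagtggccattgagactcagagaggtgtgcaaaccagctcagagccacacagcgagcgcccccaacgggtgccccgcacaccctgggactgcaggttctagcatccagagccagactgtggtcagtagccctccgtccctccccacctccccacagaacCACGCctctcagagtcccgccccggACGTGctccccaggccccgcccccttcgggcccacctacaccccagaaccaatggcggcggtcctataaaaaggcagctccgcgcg

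Hk3 promoter: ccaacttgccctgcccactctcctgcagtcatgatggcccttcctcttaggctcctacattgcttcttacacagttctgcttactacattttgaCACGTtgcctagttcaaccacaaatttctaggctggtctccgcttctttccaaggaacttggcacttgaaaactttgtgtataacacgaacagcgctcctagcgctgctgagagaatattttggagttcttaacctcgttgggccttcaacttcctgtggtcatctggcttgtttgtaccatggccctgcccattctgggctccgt

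Pfkfb4 promoter: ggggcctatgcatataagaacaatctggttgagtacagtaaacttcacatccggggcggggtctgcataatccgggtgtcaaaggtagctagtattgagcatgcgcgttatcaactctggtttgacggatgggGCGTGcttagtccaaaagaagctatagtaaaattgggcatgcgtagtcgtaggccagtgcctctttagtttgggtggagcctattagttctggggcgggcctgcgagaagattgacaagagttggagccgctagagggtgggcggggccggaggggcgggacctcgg

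Ldha promoter: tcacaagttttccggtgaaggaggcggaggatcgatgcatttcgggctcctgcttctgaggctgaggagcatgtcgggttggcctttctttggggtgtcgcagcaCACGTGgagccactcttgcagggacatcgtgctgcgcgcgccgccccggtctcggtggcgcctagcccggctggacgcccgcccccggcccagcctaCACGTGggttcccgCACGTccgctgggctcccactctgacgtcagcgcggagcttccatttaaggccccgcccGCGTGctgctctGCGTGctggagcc

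Egln3 promoter: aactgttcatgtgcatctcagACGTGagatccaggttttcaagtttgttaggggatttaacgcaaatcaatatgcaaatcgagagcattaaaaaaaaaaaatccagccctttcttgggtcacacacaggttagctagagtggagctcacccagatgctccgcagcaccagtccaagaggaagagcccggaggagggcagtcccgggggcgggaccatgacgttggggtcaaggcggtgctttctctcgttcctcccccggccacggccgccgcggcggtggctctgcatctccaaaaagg

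Ldha, shown with the window holding more matches of its 2, had 7 match starts, the most of any window, and Slc2a1 held 1 of each motif. Pfkfb4 was the gene without ACGTG in its window.

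Total counts ran from 7825120 in SASD 24 h to 27501393 in Con. The libraries fell into 2 sets that cut across SD and SASD: haemoglobin genes took 0.275% to 0.727% of counts in Con and both 48 h libraries, and 3.57% to 6.96% in the other 7. The 2 libraries of each shared time lay in the same set, whereas Con shared its set with the 48 h libraries alone, so a ratio over Con at other times also crosses the sets. Ptprc, the pan-leukocyte surface phosphatase CD45, was at 1362 to 2229 CPM across the 10 libraries, beside markers of neutrophils, monocytes, lymphocytes, platelets and red cells. In blood, fewer cells of a type and less RNA per cell cannot be told apart. Levels are counts scaled to an equal library size by TMM (CPM), and levels between genes are given per exon length (TPM).

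Per length, Slc2a3 was the most abundant of the 10 genes, with a median of 242 TPM over the 10 libraries. Ldha followed at 173 TPM and Pgk1 at 143 TPM. These 3 stood apart from the rest, since Pgk1 exceeded Pfkfb4, the next in order at 53.3 TPM, in 10 of 10 libraries and their ranges did not overlap. Hif1a (47.0 TPM), Hk3 (42.9 TPM), Slc2a1 (37.7 TPM) and Pfkfb3 (27.7 TPM) came next as medians. Their order was not the same in every library: Hif1a exceeded Hk3 in 6 of 10. Hk2 at 10.5 TPM and Egln3 at 8.17 TPM were lowest, and Hk2 exceeded Egln3 in only 4 of 10 libraries.

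**Figure D1:**
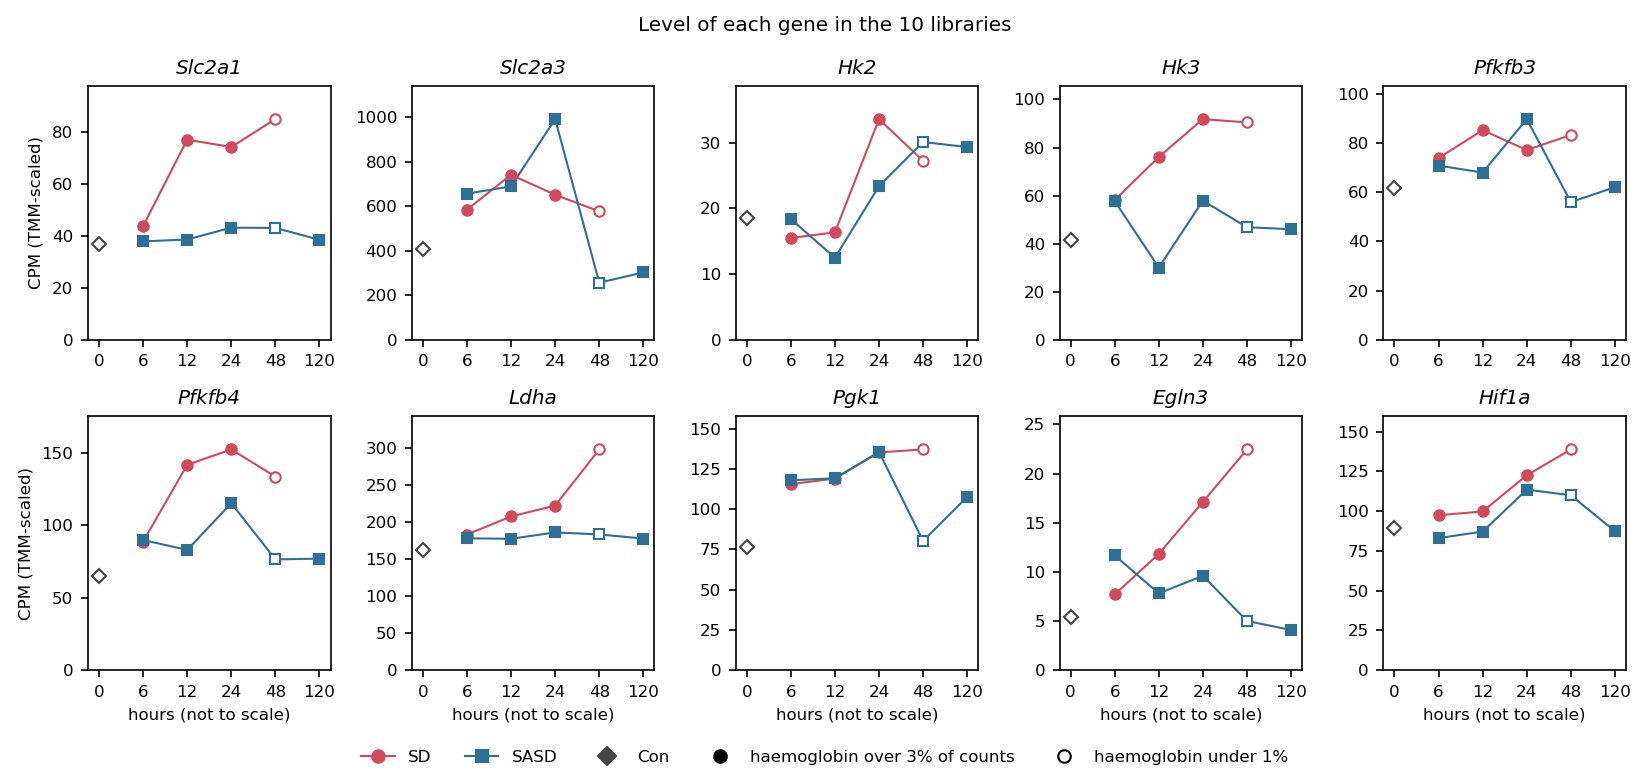
Level of each gene in CPM (vertical axis, from 0) against hours of SD, SASD or Con (horizontal axis, steps not to scale), 1 point per library; open symbols are libraries with haemoglobin genes under 1% of counts. Slc2a1 was at 43.8 to 85.0 CPM in SD and at 37.9 to 43.2 CPM in SASD, and Egln3 reached 22.5 CPM in SD 48 h.

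Slc2a1 (chr4:119108711-119137983, plus strand, GRCm38 as for all genes here) encodes GLUT1, the widely expressed basal glucose transporter. It was at 43.8, 77.1, 74.3 and 85.0 CPM in SD at 6, 12, 24 and 48 h, at 37.9, 38.6, 43.2, 43.1 and 38.5 CPM in SASD at 6, 12, 24, 48 and 120 h, and at 36.8 CPM in Con. Every SD library from 12 h on was above every SASD library. SD 6 h was only just above the SASD libraries and fell below SASD 48 h with library totals in place of TMM (ratios over Con of 0.988 and 1.16). The slope under SD exceeded that under SASD by 0.36 ± 0.06 on the log2 scale (SE) per doubling of 1 plus hours over 6 (edgeR's quasi-likelihood test, adjusted p = 0.0481). It was the only member called of 58 among 14138 genes in that test, where 0.41% of genes were called. The call was lost when any of the 8 SD or SASD libraries of the fit was left out in turn (adjusted p = 0.0617 to 0.164) and with time on a linear scale (adjusted p = 0.313), while the estimate stayed at 0.32 to 0.42 on leaving out a library. It held among the 6 libraries with haemoglobin over 3% of counts (0.43 ± 0.08, edgeR adjusted p = 0.0457), a subset chosen after the data were seen. Exons of Slc2a1 overlap 105 bases of the antisense gene Gm12868, and reads were counted without strand.

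Slc2a3 (chr6:122727809-122801640, minus strand) encodes GLUT3, a high-affinity transporter of neurons, platelets and leukocytes, and it did not follow Slc2a1. Its levels were 585, 741, 652 and 577 CPM in SD at 6 to 48 h, 656, 689, 991, 256 and 303 CPM in SASD at 6 to 120 h, and 410 CPM in Con. The highest and the lowest library were both SASD ones, at 24 h and 48 h, and the SD libraries lay between them. The SD over SASD ratio was therefore 0.657 at 24 h (95% counting interval 0.635 to 0.680) and 2.25 at 48 h (2.18 to 2.32). The steady difference over the 4 times was 0.12 ± 0.26 (log2, edgeR adjusted p = 0.928), within the spread between times, and without the 48 h libraries it was -0.20. Summed platelet markers were at 7866, 8863, 5499 and 4191 CPM in SD and 4225 CPM in Con. In SASD they were at 9702, 9918, 13665, 2241 and 4180 CPM. They were nearly equal in SD 48 h, Con and SASD 120 h, where Slc2a3 was at 577, 410 and 303 CPM. Like Slc2a3, they were highest in SASD 24 h and lowest in SASD 48 h. These extremes were not particular to platelet markers. Summed erythroid markers were also highest in SASD 24 h (98714 CPM) and lowest in SASD 48 h (2731 CPM). So were the summed other glycolytic enzymes (4123 and 2226 CPM) and other hypoxia response genes (3696 and 771 CPM). All 12 platelet markers were detected in every library, and their part in the Slc2a3 levels was not tested.

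The balance of the 2 transporters was also read as shares of their counts, a comparison chosen after their values were seen. Of the counts of Slc2a1 and Slc2a3, Slc2a1 made up 6.97%, 9.42%, 10.2% and 12.8% in SD at 6, 12, 24 and 48 h and 8.24% in Con. In SASD its share was 5.46%, 5.31% and 4.17% at 6, 12 and 24 h, then 14.4% at 48 h and 11.3% at 120 h. The high late SASD shares came with low Slc2a3 and not with high Slc2a1.

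Hk3 (chr13:55005985-55021385, minus strand) is a hexokinase of myeloid cells, and Hk2 (chr6:82725025-82774454, minus strand) is the inducible hexokinase that binds mitochondria. Hk3 was at 58.1, 76.1, 91.8 and 90.4 CPM in SD, at 57.7, 30.1, 57.9, 46.8 and 46.0 CPM in SASD, and at 41.4 CPM in Con. SD libraries were higher from 12 h on, SD 6 h was level with SASD 6 h and 24 h, and the largest gap was at 12 h, with a ratio of 2.53 (95% counting interval 2.20 to 2.92). The steady difference was 0.74 ± 0.19 (log2, edgeR adjusted p = 0.352), and the SD slope was 0.38 ± 0.07 (edgeR adjusted p = 0.152), neither of which passed. The difference rested on the times used: without the 6 h libraries it was 0.98 (edgeR adjusted p = 0.0339, with 237 genes called overall), without 12 h 0.54 (0.907), without 24 h 0.76 (0.907) and without 48 h 0.68 (0.559). Exons of Hk3 overlap 34 bases of Unc5a on the other strand.

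Hk2 behaved differently from Hk3. It was at 15.5, 16.3, 33.6 and 27.2 CPM in SD, at 18.4, 12.5, 23.4, 30.1 and 29.3 CPM in SASD, and at 18.5 CPM in Con. Both methods were low at 6 and 12 h and higher from 24 h, and their ranges overlapped throughout. Its SASD slope was 0.21 ± 0.08, which had an unadjusted p of 0.0380 and an edgeR adjusted p of 1.0. Summed monocyte markers were also low at 6 and 12 h and higher at 24 and 48 h, at 2286, 2506, 4165 and 3820 CPM in SD, 2683, 1998, 3099, 3679 and 2927 CPM in SASD and 2071 CPM in Con. All 14 were detected in every library, and their part in the Hk2 levels was not tested. Hk2 made up 17.7% to 26.8% of the counts of Hk2 and Hk3 in SD, 24.2% to 39.1% in SASD and 30.9% in Con.

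Pfkfb3 (chr2:11471433-11554077, minus strand) and Pfkfb4 (chr9:108991778-109032228, plus strand) make fructose 2,6-bisphosphate, the activator of phosphofructokinase, and Pfkfb4 can also break it down. Pfkfb4 was at 88.7, 142, 152 and 134 CPM in SD, at 89.9, 83.0, 115, 76.5 and 77.0 CPM in SASD, and at 64.9 CPM in Con. From 12 h on every SD library was above every SASD library, whereas at 6 h the methods were level. The steady difference was 0.50 ± 0.14 (log2, edgeR adjusted p = 0.402) and the difference of slopes 0.25 ± 0.09 (edgeR adjusted p = 0.483), and neither passed. Pfkfb3 varied less, from 55.9 CPM in SASD 48 h to 89.6 CPM in SASD 24 h, with SD libraries at 73.8 to 85.1 CPM and Con at 61.6 CPM. With library totals SD 48 h was above SASD 24 h (ratios over Con of 1.23 and 1.04). Its steady difference was 0.19 ± 0.13 (log2, edgeR adjusted p = 0.751). Pfkfb4 made up 54.6%, 62.5%, 66.4% and 61.6% of the counts of the pair in SD, 55.0% to 57.8% in SASD and 51.3% in Con, so SD stood above SASD from 12 h on.

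**Figure D2:**
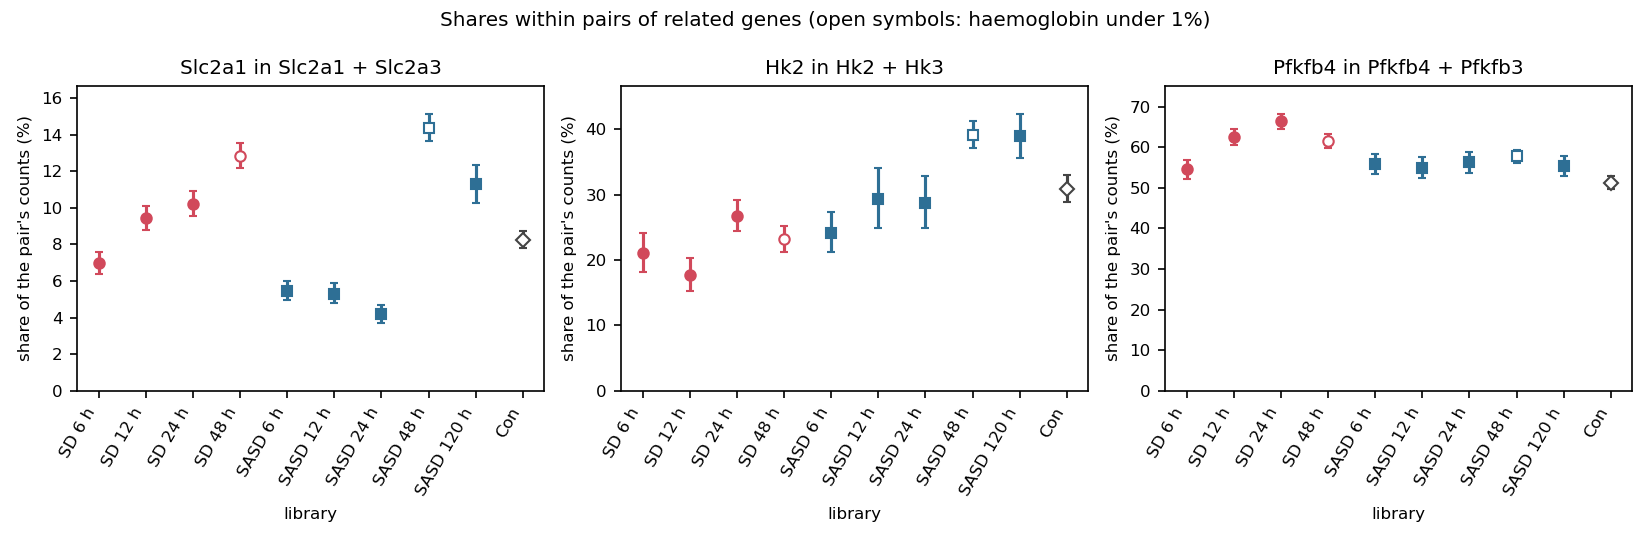
Share of Slc2a1, Hk2 and Pfkfb4 in the counts of their pair (vertical axes, percent, from 0) in each library (horizontal axis); bars are exact 95% binomial intervals for counting error, and open symbols are libraries with haemoglobin under 1% of counts. The Pfkfb4 share was 61.6% to 66.4% in SD from 12 h and 55.0% to 57.8% in SASD.

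Pgk1 (chrX:106187100-106203699, plus strand) makes ATP in the lower part of glycolysis, and Ldha (chr7:46841475-46855627, plus strand) turns pyruvate into lactate. Ldha was at 183, 208, 222 and 298 CPM in SD, at 178, 178, 186, 183 and 178 CPM in SASD, and at 163 CPM in Con. On this scale the 5 SASD libraries differed from each other by at most 1.05 times, and SD libraries were above all of them from 12 h on. With library totals the SASD ratios over Con ran from 0.814 at 24 h to 1.12 at 48 h, and SD 12 h at 1.05 was below SASD 48 h. Its SD over SASD ratio was 1.03, 1.17, 1.19 and 1.63 over the 4 times, the last with a 95% counting interval of 1.56 to 1.69. The difference of slopes was 0.17 ± 0.04 (log2, edgeR adjusted p = 0.195). Pgk1 had SD over SASD ratios of 0.980, 0.999 and 0.998 at 6, 12 and 24 h, with intervals that include 1, and of 1.71 at 48 h (1.61 to 1.81). With library totals its ratio was 1.16 at 24 h and 1.57 at 48 h. At 48 h it was at 137 CPM in SD and 80.3 CPM in SASD, the SASD value being close to the 76.6 CPM of Con.

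Egln3 (chr12:54178981-54203860, minus strand) encodes the oxygen-dependent prolyl hydroxylase PHD3, which acts on HIF alpha subunits and is itself a hypoxia-induced gene. It was at 7.70, 11.8, 17.1 and 22.5 CPM in SD at 6, 12, 24 and 48 h, at 11.7, 7.81, 9.60, 5.0 and 4.08 CPM in SASD at 6, 12, 24, 48 and 120 h, and at 5.36 CPM in Con. The SD libraries were in order of time, the SASD libraries at 48 and 120 h were below Con, and at 6 h SASD was the higher of the methods. Egln3 rose with hours of SD, by 0.68 ± 0.07 on the log2 scale per doubling of 1 plus hours over 6 (edgeR adjusted p = 0.0411), which amounts to 2.17 (log2) over 48 h. It was the only member among the 18 of 14562 genes called in the SD trend (0.124%). The call was lost without Con (adjusted p = 0.0674), SD 6 h (0.174), SD 12 h (0.0836) or SD 24 h (0.211) and on linear hours (0.346), and held without SD 48 h (0.0356). Among the 3 SD libraries with haemoglobin over 3%, the Egln3 slope was 0.85 ± 0.20 (edgeR adjusted p = 0.0553). There Hk2 was called in its place (0.88 ± 0.18, edgeR adjusted p = 0.0324), with 314 of 12961 genes called. That fit was chosen after the data were seen and had 1 residual degree of freedom.

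The SD over SASD ratio of Egln3 ran from 0.659 at 6 h (95% counting interval 0.491 to 0.880) to 4.49 at 48 h (3.68 to 5.51), the widest spread of the 10 genes. It is also the gene with the fewest counts, 44 to 331 per library. Its steady difference was 0.80 ± 0.39 (log2, edgeR adjusted p = 0.674), the ratio being below 1 at 6 h and above it at the other times. The SASD slope was -0.21 ± 0.15 (edgeR adjusted p = 1.0), and the difference of slopes 0.47 ± 0.14 (edgeR adjusted p = 0.298). Hif1a (chr12:73901375-73947530, plus strand), the oxygen-regulated subunit of HIF-1, is mainly controlled at the protein level, which these data do not measure. It was at 97.4, 99.7, 123 and 139 CPM in SD, at 83.0, 87.1, 113, 110 and 87.3 CPM in SASD, and at 89.6 CPM in Con. SD was above SASD at each shared time, by 1.08 to 1.26 times, and the ranges overlapped. The steady difference was 0.22 ± 0.08 (log2, edgeR adjusted p = 0.568). Hif1a exons overlap 330 bases of the antisense gene Gm15283 and 148 bases of Gm49321, which was not analysed here.

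Across the 10 genes, SD against SASD called 0 members, and 0 of 13370 genes overall (0%) at an edgeR adjusted p of 0.05. At an unadjusted p under 0.05 it had 5 of 10 members (Slc2a1, Hk3, Pfkfb4, Ldha and Hif1a), all higher in SD, against 8.09% of all genes. The median estimate was 0.26 over the members and 0.00 over all genes tested, and 10 of 10 were above 0. DESeq2 called Slc2a1 (adjusted p = 0.00638) among 169 genes, and limma called 0. In the SD trend 7 of 10 members had an unadjusted p under 0.05, against 10.4% of all genes, and 10 of 10 slopes were above 0 with a median of 0.27. In the SASD trend edgeR called 0 members of 0 genes overall (0% of 14602), 1 member had an unadjusted p under 0.05 (Hk2, against 3.03% of all genes), and the median slope was 0.02. DESeq2 and limma also called 0 genes in the SASD trend. On simulated counts the edgeR fit of that trend recovered 2% of 2-fold and 23% of 4-fold changes. A lack of calls there does not show a lack of change. The direct comparison of slopes had 5 of 10 members (Slc2a1, Hk3, Pfkfb4, Ldha and Egln3) at an unadjusted p under 0.05, against 7.58% of all genes. The SD and SASD trends share Con. Pearson correlations between members over the 10 libraries ran from -0.408 (Slc2a3 with Hk2) to 0.886 (Slc2a1 with Ldha). The members are thus not independent of each other, and they were chosen with earlier results of these data known. Their shares beside those of all genes are a description and not a test.

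**Figure D3:**
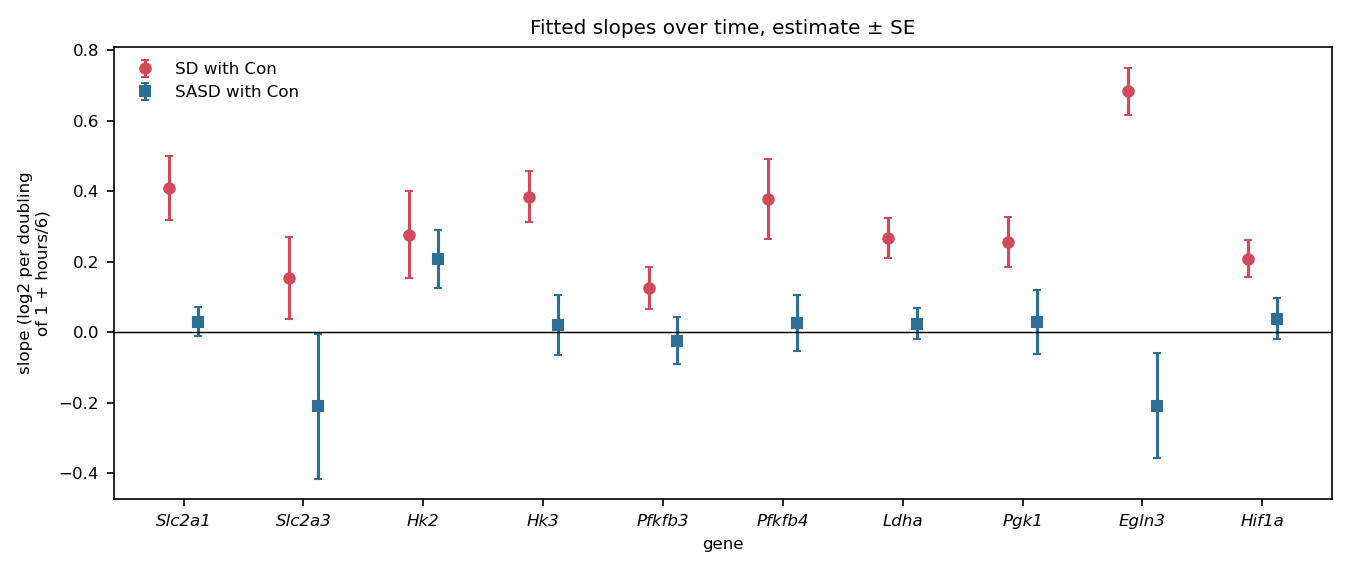
Fitted slope of each gene (vertical axis, log2 per doubling of 1 plus hours over 6, with its SE) under SD and under SASD, each fitted with the same Con library. The SD slopes lie between 0.12 for Pfkfb3 and 0.68 for Egln3, and the SASD slopes between -0.21 for Slc2a3 and Egln3 and 0.21 for Hk2.

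By single pairs, the median SD over SASD ratio of the members was lowest at 6 h and highest at 48 h, while single genes such as Hk3 peaked at 12 h. At 6 h 0 of 10 were at least 2-fold higher in SD than in SASD, against 0.121% of all genes, and the median log2 ratio was 0.00. At 12 h Hk3 was past 2-fold (background 2.92%) with Slc2a1 just under it at 2.0, and the median was 0.36. At 24 h there was none (background 3.7%), with a median of 0.33. At 48 h Slc2a3 and Egln3 were past 2-fold (background 4.45%), the median was 0.79, and Hk2 was the one gene below 1, at 0.904 (95% counting interval 0.801 to 1.02). Single pairs have no replicate check, and intervals cover counting error only.

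**Figure D4:**
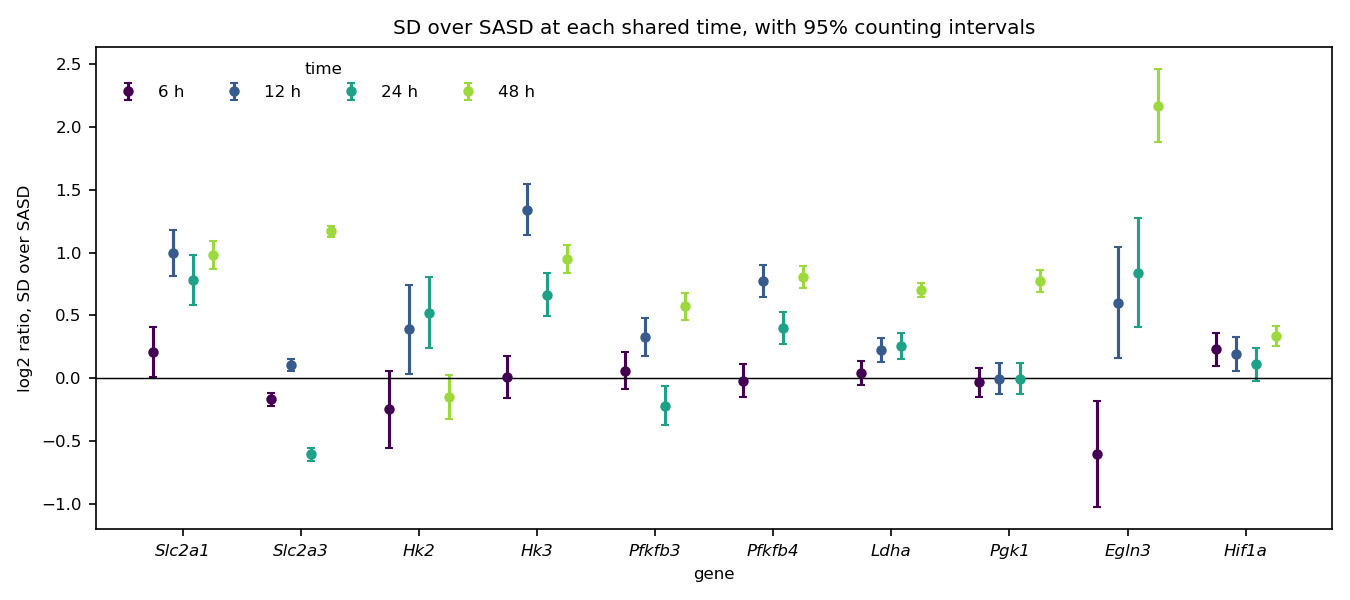
Log2 ratio of SD over SASD (vertical axis) for each gene at 6, 12, 24 and 48 h, with exact 95% counting intervals; 0 is no difference. At 6 h most genes lie near 0 and Egln3 below it, and at 48 h 9 of 10 genes lie above 0, Egln3 highest at 2.17.

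Con could be compared within its own haemoglobin set at 48 h, but the libraries of that set were unequal in counts of olfactory genes. The part of that inequality in the ratios over Con, or in SD over SASD at 48 h, was not tested. SD 48 h over Con was above 1 for 10 of 10 members, and 4 were at least 2-fold higher (background 4.21%): Egln3 at 4.19 (95% counting interval 3.47 to 5.07), Slc2a1 at 2.31 (2.13 to 2.50), Hk3 at 2.19 (2.02 to 2.36) and Pfkfb4 at 2.06 (1.94 to 2.19). With library totals 2 remained past 2-fold, since Hk3 was at 1.99 and Pfkfb4 at 1.88. SASD 48 h over Con had 0 members at least 2-fold higher (background 1.35%). Its values ran from 0.626 for Slc2a3 (0.608 to 0.644) to 1.63 for Hk2 (1.47 to 1.81), with Slc2a1 at 1.17 and Egln3 at 0.932 (0.741 to 1.17). The comparisons share the Con library.

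Mature neutrophil markers were high in the same SD libraries. The summed level of 20 mature neutrophil markers was 3931, 7762, 9190 and 13399 CPM in SD, 3462, 2687, 3714, 2990 and 2513 CPM in SASD and 2683 CPM in Con. In every library 0 of the 20 were at 0 counts, and S100a8 was at 433 to 2405 CPM in SD, 240 to 391 CPM in SASD and 371 CPM in Con. The SD over SASD ratio of the sum was 1.14, 2.89, 2.47 and 4.48 at 6, 12, 24 and 48 h, larger than that of Slc2a1 (1.16, 2.0, 1.72 and 1.97) at all times but 6 h. Of the 20 markers, edgeR called 9 as higher in the difference of slopes, where 0.41% of all genes were called. It called 2 in the SD trend (0.124% of all genes) and 0 in SD against SASD (0%). In SD against SASD 20 of 20 had an unadjusted p under 0.05, against 8.09% of all genes. The markers were chosen with earlier results of these data known, so these counts are a description and not a test. The 12 granule and precursor markers had ratios of 1.03, 2.77, 2.59 and 4.99, with Mpo, Elane, Ctsg or Fcnb at 0 in 7 of 10 libraries. The part of the neutrophil markers in the levels of Slc2a1, Hk3, Pfkfb4, Ldha and Egln3 was not tested. B cell markers had ratios of 1.0, 0.935, 0.774 and 0.733, and NK and cytotoxic markers 0.810, 0.892, 1.09 and 0.969. T cell markers had ratios of 1.02, 0.869, 0.997 and 1.65, and erythroid markers 1.05, 0.764, 0.670 and 1.26.

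**Figure D5:**
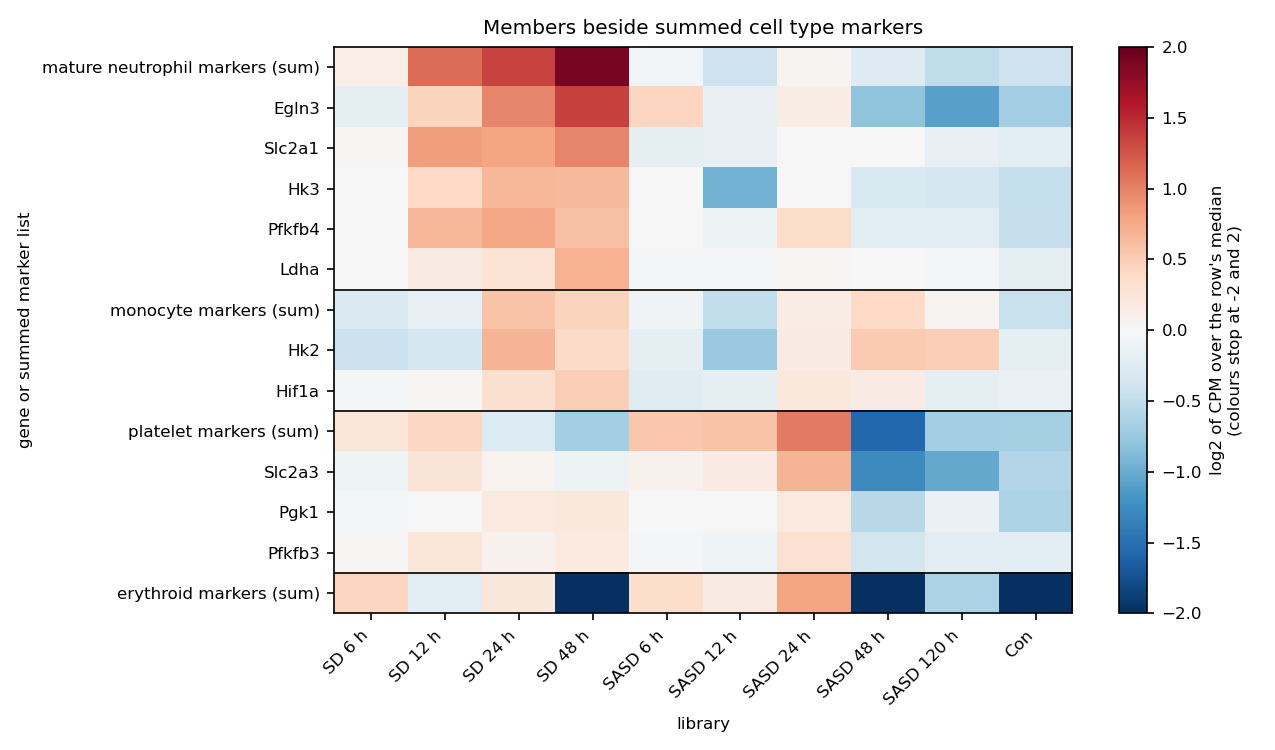
Log2 of CPM over the row's median of 10 libraries (colour, red above and blue below) for the members and for summed marker lists (rows) in each library (columns). The order of rows was set by hand after the values were seen, and likeness of members to lists was not measured. Pgk1, for example, stands under platelet markers but was highest in SD 48 h (0.21), where those markers were at -0.67. Mature neutrophil markers and Egln3 are highest in SD 48 h. Platelet markers, erythroid markers and Slc2a3 are highest in SASD 24 h and lowest in SASD 48 h.

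The genes most like each member over the 10 libraries, by Pearson correlation of log2 CPM among 9620 genes, are given as a description. Slc2a1 was closest to Klhl2 (r = 0.984), Clec4e and Slc35a5, where Clec4e is a C-type lectin receptor and 1 of the neutrophil markers. Egln3 was closest to Lcn2 (r = 0.952), Mmp8 and Bmx, the leading pair being neutrophil granule proteins. Slc2a3 was closest to Ptpn12 (r = 0.991), Pik3cb and Gsn. Pgk1 was closest to Gapdh (r = 0.966), the enzyme just before it in glycolysis, followed by Prr13 and Arl4c. Pfkfb4 was closest to Ppp1r3d (r = 0.991), Ndel1 and Lrg1, and Ldha to Prdx5 (r = 0.979), Ggt1 and Pglyrp1. Hk2 was closest to Abca9 (r = 0.975), Hspa5 and Arhgef37, and Hk3 to Dhx38 (r = 0.984), Rab44 and Apobr. Hif1a was closest to the endotoxin receptor Tlr4 (r = 0.956), Zfp516 and Gnai3, and Pfkfb3 to Wbp1l (r = 0.980), Pde7b and I830077J02Rik. All libraries of a time share their haemoglobin set, so such values carry the sets as well as the methods.

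Around the members, edgeR called 0 genes of the other 5 pathway lists in any of the 4 fits, but other models did call some. The SD trend tested 17 glycolytic enzymes, 7 transporters, 17 hypoxia response genes and 14 glycogen and pentose phosphate genes. DESeq2 called 1, 1, 1 and 4 of these, with 456 called of all 14562 genes. By limma 0, 1, 1 and 1 were called, with 50 of all genes. With a term for the haemoglobin set edgeR called 3, 2, 1 and 6, with 796 of all genes. In SD against SASD DESeq2 called 2 of 7 transporters and 1 of 14 glycogen or pentose phosphate genes. There it called 169 of all 13370 genes, and limma called 0. Among other sugar and lactate transporters, 3 of 7 tested were higher at an unadjusted p under 0.05 in SD against SASD, where 8.09% of all genes passed, led by the lysosomal transporter Slc2a6 (0.76 ± 0.18, edgeR adjusted p = 0.323). The lactate exporter Slc16a3 (MCT4) was at 70.2, 127, 149 and 197 CPM in SD, at 65.4, 44.3, 92.3, 47.9 and 50.2 CPM in SASD, and at 32.6 CPM in Con. Each SD library from 12 h on was above all SASD libraries, and the SD slope was 0.82 ± 0.12 (edgeR adjusted p = 0.0729). Of 17 other glycolytic enzymes tested, 4 had higher SD slopes at an unadjusted p under 0.05, against 10.4% of all genes, led by Gapdh (0.34 ± 0.09, edgeR adjusted p = 0.291), and 0 differed between SD and SASD at that p.

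Glycogen and pentose phosphate genes had 8 of 14 higher SD slopes at an unadjusted p under 0.05 and 0 lower, against 10.4% of all genes in either direction. G6pdx, which opens the pentose phosphate pathway, had an SD slope of 0.44 ± 0.05 (edgeR adjusted p = 0.0616). Pygl, the glycogen phosphorylase of liver and leukocytes, was at 152, 255, 300 and 355 CPM in SD, at 149, 106, 163, 143 and 111 CPM in SASD, and at 102 CPM in Con. It was level at 6 h and higher in SD from 12 h on, and its difference of slopes was 0.43 ± 0.08 (edgeR adjusted p = 0.0634). Of 12 other oxygen sensing genes tested, 1 had a higher SD slope at an unadjusted p under 0.05, Egln1 (0.15 ± 0.05, edgeR adjusted p = 0.409), the main hydroxylase of HIF-1 alpha, a share no larger than the 10.4% of all genes. Their summed level was 692 to 750 CPM in SD, 668 to 773 CPM in SASD and 753 CPM in Con. Of 17 other hypoxia response genes tested, 3 had higher SD slopes at an unadjusted p under 0.05, against the same 10.4%, led by the lipid droplet protein Plin2 (0.46 ± 0.06, edgeR adjusted p = 0.0616). In SD against SASD 12 of 16 of these genes had estimates above 0, with a median of 0.12, whereas their summed level had SD over SASD ratios of 0.864, 0.875, 0.534 and 1.45.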

How the data were processed

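Blood RNA of 10 libraries was analysed, 1 per group, each a pool of 3 mice. Reads were trimmed with Trimmomatic 0.39 and aligned to mm10 with STAR 2.7.9a, per the submitters' processing notes. Read pairs were assigned to the exons of each gene in featureCounts 2.0.3 by the authors, without strand and leaving out multi-mapped and overlapping reads, and raw counts for 32285 genes were deposited, per the file headers. Gene positions and exon lengths came from GENCODE M21.

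Counts were tested with edgeR 4.0.16 (R 4.3.3): TMM scaling, a minimum mean count of 10, quasi-likelihood test, Benjamini-Hochberg adjustment over all genes at 0.05. SD against SASD used 8 libraries blocked by time (3 residual degrees of freedom). Trends used slopes on log2(1 + hours/6), with Con at 0 h: SD 5 libraries, SASD 6, and the difference of slopes 9 libraries without SASD 120 h (6 residual degrees of freedom). SE was the estimate over the square root of F. With 1 library per group, p-values measure the spread between pools and times, part of which may be technical. Single ratios have exact conditional binomial (Clopper-Pearson) 95% intervals (scipy 1.17.1), and counts of 2-fold genes needed a pair mean of 25 counts or more. DESeq2 1.42.0 and limma 3.58.1 were alternatives, as were other scalings, count minimums, time scales, a term for the haemoglobin set and leaving out libraries. The scripts were tested on simulated counts in which 200 genes were changed. Apart from those changes, each gene had 1 mean level there, without effects of time or haemoglobin set. Recovery in the real counts may therefore be lower. Of 2-fold and 4-fold changes, 83% and 93% were recovered in SD against SASD, and 1% and 55% in the SD trend. On the real counts SD against SASD called 0 of 13370 genes, although mature neutrophil markers had a median estimate of 1.43 (log2). Its lack of calls does not show a lack of change. The SASD trend recovered 2% and 23%, and the difference of slopes 14% and 73%. False calls were 21 of 197 in SD against SASD and 8 of 95 in the difference of slopes. They were 1 of 57 in the SD trend and 3 of 28 in the SASD trend. Ero1a was matched under its older symbol Ero1l, and a second Aldoa entry was left out.

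The members, gene lists and markers were chosen with earlier results of these data known. Named beside the members are, for each pathway list and fit, genes among those with the lowest unadjusted p in each direction, and the 3 most correlated genes averaging 100 counts or more.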

Additional observations from a re-analysis of the deposited data

Results flagged for a closer look

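The slope of Slc2a1 under SD exceeded its slope under SASD by 0.36 on the log2 scale per doubling of 1 plus hours over 6. The test of that difference between the methods passed (edgeR adjusted p = 0.0481). The call was lost when any SD or SASD library of the fit was left out in turn (edgeR adjusted p = 0.0617 to 0.1645). It was also lost on linear hours (edgeR adjusted p = 0.313) and held without Con (0.0347). The SD slope was 0.41 ± 0.09 and the SASD slope 0.03 ± 0.04, both with the same Con. Slc2a1 was higher in SD than in SASD at 4 of 4 shared times, which are the same libraries as in the fit. At 6 h the ratio was only 1.16 (counting interval 1.01 to 1.33).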

How the results depend on the processing

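With 1 pool per group, whole-pool differences and effects of hours cannot be told apart, and depth limits Egln3 most, at 44 counts in its lowest library. The labels carry no replicate numbers, so the shared time was the pairing of SD against SASD, fitted as a block; without that block 0 members and 0 genes were called. Members called in SD against SASD were 0, and 3 without a count minimum (Slc2a1, Hk3 and Pfkfb4), 1 with DESeq2 and 0 to 2 when the libraries of a time were left out, 2 without 6 h. In the SD trend 1 was called, and 5 with DESeq2, 7 with a term for the haemoglobin set, 0 on linear hours and 0 to 3 on leaving out a library, 3 without SD 48 h. In the difference of slopes 1 was called, and 3 with DESeq2, 0 on linear hours and 0 to 1 on leaving out a library. SASD called 0 members in all of these. On haemoglobin-rich libraries alone, a subset added after the data were seen, 1 member was called in the SD trend and 1 in the difference.

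Over all genes, SD against SASD called 0, and 389 without a count minimum, 169 with DESeq2 and 237 without the 6 h libraries. The SD trend called 18, and 63 without a minimum, 456 with DESeq2, 50 with limma, 0 on linear hours, 65 on ranked times, 796 with the set term, 314 in the haemoglobin-rich libraries and 0 to 511 on leaving out a library. The difference called 58, and 88, 272, 6, 264 and 197 without a minimum, with DESeq2, on linear hours, with the set term and in the haemoglobin-rich libraries, and 0 to 117 on leaving out a library. The SASD trend called 0, and 1 without SASD 48 h. The median of all genes was -0.12 in the SD trend and -0.10 in the SASD trend without a minimum.

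Library totals in place of TMM shifted log2 ratios over Con by -0.49 (SASD 24 h) to -0.01 (SASD 48 h) and SD over SASD by 0.22 at 24 h and -0.12 at 48 h. At 24 h they put 1 member past 2-fold in SD over SASD. Over Con, members past 2-fold became 2 of 4 at SD 48 h, 1 of 4 at SD 24 h, 0 of 3 at SD 12 h and 0 of 1 at SASD 6 h and 24 h. Ratios over Con that fell below 1 with them were at SD 6 h Slc2a1 0.988, Pfkfb3 0.995, Ldha 0.936 and Hif1a 0.902, at SD 12 h Hif1a 0.916, at SASD 6 h Slc2a1 0.837, Pfkfb3 0.933 and Ldha 0.890, at SASD 12 h Slc2a1 0.872, Pfkfb3 0.916 and Ldha 0.907, at SASD 120 h Slc2a1 0.962 and Pfkfb3 0.924, and at SASD 24 h Slc2a1 0.835, Hk2 0.901, Hk3 0.996, Ldha 0.814 and Hif1a 0.901.

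Estimates that changed sign were all uncalled. In SD against SASD, Slc2a3 was -0.018 without the time block and ran from -0.204 to 0.364, and Hk2 from -0.0194 to 0.241, on leaving out a time. On leaving out a library, the SD slope of Slc2a3 ran from -0.0496 to 0.331. SASD slopes ran from -0.0246 to 0.0672 for Hk3, -0.0900 to 0.00861 for Pfkfb3, -0.0832 to 0.111 for Pfkfb4, -0.00407 to 0.0453 for Ldha and -0.0949 to 0.0785 for Pgk1. Differences of slopes ran from -0.238 to 0.255 for Slc2a3, -0.0310 to 0.153 for Hk2, -0.0144 to 0.167 for Pfkfb3 and -0.0422 to 0.180 for Pgk1. On linear hours the SASD slopes of Pfkfb4 and Pgk1 were -0.0226 and -0.00503, and with the set term that of Pgk1 was -0.0156. In the haemoglobin-rich libraries SASD slopes were -0.00305 for Slc2a1, -0.0242 for Hk3, -0.0644 for Pfkfb4, -0.00734 for Ldha and -0.0502 for Pgk1, and the difference of slopes of Slc2a3 was -0.141. The cause was not tested.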
